A study of Mus musculus with 4 samples.

Results

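Fatty acid synthesis and desaturation genes were examined in cultured mouse fibroblasts that were wild type or lacked SIN1. SIN1 is an essential subunit of mTOR complex 2, the kinase complex that phosphorylates AKT. The 10 genes Fasn, Acaca, Acly, Me1, Elovl6, Scd1, Scd2, Fads1, Fads2 and Srebf1 were fixed by a list of array probe sets, which named 18 of the 45101 probe sets of the deposited table. A probe set is a group of short probes against 1 transcript region. All 18 were found.

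The study held 4 arrays, 2 for wild type and 2 for SIN1 knock-out (SIN1 KO) fibroblasts. Both genotypes were C57BL/6 fibroblasts grown in DMEM, and the labels call them epithelial fibroblasts, while the design text calls them MEFs. The labels describe the SIN1 KO cells as having altered metabolism and name no treatment. They leave unstated whether replicate arrays stem from different cultures, lines or embryos and whether the knock-out line is 1 clone. A p-value here reflects the spread among these 4 arrays, possibly technical spread. The table pairs no probe set with a gene beyond the list used here, so the ablated gene Mapkap1, cell type markers and other lipid genes were not analysed here, and the genotype labels were not checked against Mapkap1.

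Cells make fatty acids from citrate in the cytosol. Acly cleaves citrate to acetyl-CoA, Acaca carboxylates acetyl-CoA to malonyl-CoA, Fasn joins these units into palmitate, and Me1 supplies NADPH for the reduction steps. Elovl6 lengthens palmitate to stearate, Scd1 and Scd2 place the first double bond in saturated chains, and Fads1 and Fads2 add double bonds to polyunsaturated chains. Srebf1 encodes the SREBP-1 transcription factors, which switch on most of these genes, and insulin signalling through AKT is a known activator of that programme.

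Values are log2 RMA values, on which 1 unit is a 2-fold change. Over the 18 probe sets, 9 had a higher mean in SIN1 KO and 9 a lower one, with differences (SIN1 KO minus wild type) from -1.15 to 1.82. Their median difference was -0.06, against 0.04 over all 45037 tested probe sets. Both Fads2 probe sets, Fads1 and Srebf1 had both SIN1 KO values above both wild type values. Scd1, Scd2, Acaca and Elovl6 instead varied so widely within a genotype that the genotypes overlapped. Of the rest, 1 of the 2 Acly probe sets separated the genotypes. None of the 18 passed limma's test after Benjamini-Hochberg adjustment over all probe sets (lowest adjusted p 0.795). RNA was taken from whole cultures, so fewer cells of a kind and less RNA per cell cannot be told apart.

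**Figure D1:**
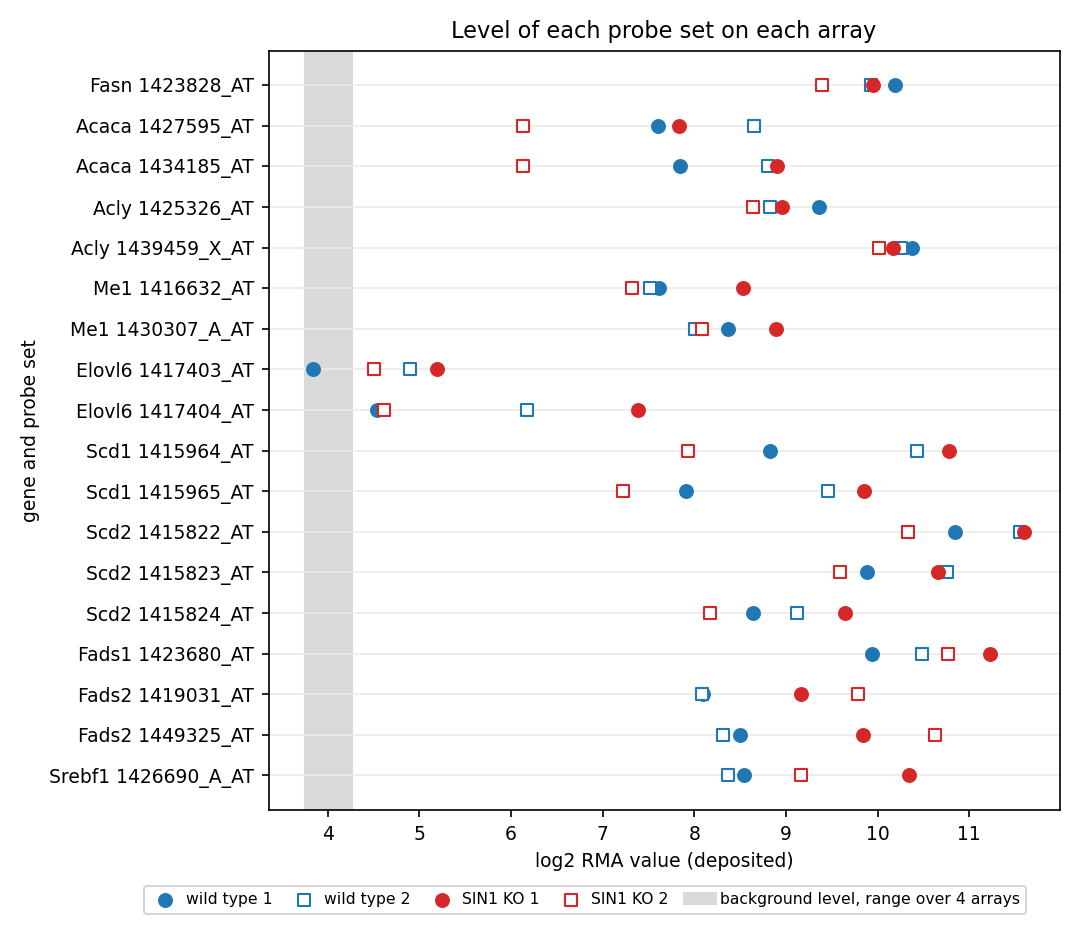
Log2 RMA value (x axis) of each of the 18 probe sets (y axis) on each of the 4 arrays, with wild type in blue and SIN1 KO in red, array 1 as filled circles and array 2 as open squares. The grey band spans the background levels of the arrays (3.75 to 4.27), and for Fads2, Fads1 and Srebf1 both red points lie to the right of both blue points.

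Background was taken per array as the highest of 27 Bacillus subtilis control probe sets and was 3.75 to 4.27. Array medians were 4.23 to 4.32. Of the 18 probe sets, 17 were above background on all 4 arrays. The exception was Elovl6 1417403_AT, at 3.84 on wild type 1 against a background of 4.05 there. The 18 hybridisation controls, bacterial and phage transcripts spiked in ahead of hybridisation, averaged 11.85 and 11.73 on wild type 1 and 2, and 11.41 and 11.54 on SIN1 KO 1 and 2. Scaling the arrays to them moved the median difference of all probe sets from 0.04 to 0.36 and that of the 18 from -0.06 to 0.26. The controls themselves differed by -0.32 (SIN1 KO minus wild type). The scaling takes this amount from every difference, so any difference between -0.32 and 0 turns positive.

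For 2 genes whose genotypes separated and 1 whose genotypes overlapped, the sequence at the start sites is shown. RefSeq promoter windows (build GRCm38.p6, 250 bases before to 50 after a start site) were at hand for 7 of the 10 genes, with 10 windows in all, of which those of Fads2, Srebf1 and Fasn are printed. Fads2 is shown for its difference, Srebf1 as the transcription factor of the pathway, and Fasn as its central enzyme. Capitals mark GGGCGG (the Sp1 GC box) and CCAAT (the NF-Y box) on either strand, so that CCGCCC and ATTGG are the same motifs read from the other strand. Each is written 5′ to 3′ along the gene's strand, which is the minus strand for all of them.
Fads2, chr19:10101454-10101753: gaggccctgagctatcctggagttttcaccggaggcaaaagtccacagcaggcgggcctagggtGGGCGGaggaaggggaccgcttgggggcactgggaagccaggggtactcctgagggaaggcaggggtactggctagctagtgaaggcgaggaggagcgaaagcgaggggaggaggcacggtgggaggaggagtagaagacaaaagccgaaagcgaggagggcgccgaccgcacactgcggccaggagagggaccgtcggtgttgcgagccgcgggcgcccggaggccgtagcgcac
Srebf1, chr11:60222532-60222831: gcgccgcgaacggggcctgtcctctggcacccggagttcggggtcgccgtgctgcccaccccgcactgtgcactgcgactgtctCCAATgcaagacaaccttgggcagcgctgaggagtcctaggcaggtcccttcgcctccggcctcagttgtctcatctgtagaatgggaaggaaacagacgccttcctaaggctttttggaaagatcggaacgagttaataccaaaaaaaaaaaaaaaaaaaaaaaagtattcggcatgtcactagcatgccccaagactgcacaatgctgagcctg
Srebf1, chr11:60220578-60220877: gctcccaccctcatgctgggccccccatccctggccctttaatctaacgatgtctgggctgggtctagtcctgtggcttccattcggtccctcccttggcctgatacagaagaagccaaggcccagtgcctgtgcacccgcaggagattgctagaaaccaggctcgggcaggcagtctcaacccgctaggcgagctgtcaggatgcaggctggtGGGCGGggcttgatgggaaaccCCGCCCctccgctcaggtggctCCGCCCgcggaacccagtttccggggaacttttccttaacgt
Srebf1, chr11:60210422-60210721: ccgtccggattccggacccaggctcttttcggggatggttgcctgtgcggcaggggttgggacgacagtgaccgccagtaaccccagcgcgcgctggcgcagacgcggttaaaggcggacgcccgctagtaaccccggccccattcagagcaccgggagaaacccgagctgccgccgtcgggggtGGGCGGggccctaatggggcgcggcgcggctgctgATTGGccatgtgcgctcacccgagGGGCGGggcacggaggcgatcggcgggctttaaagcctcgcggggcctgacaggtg
Fasn, chr11:120824498-120824797: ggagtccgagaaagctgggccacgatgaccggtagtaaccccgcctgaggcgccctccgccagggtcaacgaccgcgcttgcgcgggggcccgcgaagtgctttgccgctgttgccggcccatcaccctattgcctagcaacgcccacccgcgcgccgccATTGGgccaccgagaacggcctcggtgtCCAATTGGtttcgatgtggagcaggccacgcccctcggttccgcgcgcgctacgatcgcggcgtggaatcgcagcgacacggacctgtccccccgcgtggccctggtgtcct

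Motifs were searched as letters on both strands. GGGCGG occurred in 5 of the 10 member windows, those of Acly, Srebf1 (2 of 3 windows), Me1 (1 of 2 windows) and Fads2, against 35.7% of 32851 windows of the same length. CCAAT occurred in 5 windows too, those of Fasn, Acly, Srebf1 (2 of 3) and Me1 (1 of 2), against 37.4% of all. In Fasn, 2 of its 3 CCAAT matches overlap each other, and these lie 62 and 59 bases before the start site, while the third lies 90 bases before it. The Fads2 window held a single GGGCGG, 186 bases before the start site, and no CCAAT. A sterol regulatory element core, TCACNCCAC, was in 0 of the 10 windows and 1.24% of all, and the E-box CACGTG in 0 and 7.15%. A missing match says only that these letters are not in these 300 bases. The probe set of Srebf1 could not be tied to 1 of its 3 start sites.

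Fads2 had the largest difference of the 10 genes. Fads2 encodes the desaturase that starts the conversion of the essential fatty acids linoleic and alpha-linolenic acid to longer polyunsaturated ones. Probe set 1449325_AT measured 8.50 and 8.31 on wild type 1 and 2, and 9.84 and 10.62 on SIN1 KO 1 and 2. Both SIN1 KO arrays lay above both wild type arrays, with a gap of 1.34 between the nearest arrays. The wild type mean was 8.41 ± 0.13 and the SIN1 KO mean 10.23 ± 0.55 (SD, n = 2), a difference of 1.82 (SE 0.36, 95% interval 0.85 to 2.80), or 3.54-fold. That difference was larger than the spread within either genotype, but it did not pass limma's test over all probe sets (adjusted p 0.795, unadjusted p 0.00581). Of all tested probe sets, 0.973% had a more positive difference.

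The other Fads2 probe set, 1419031_AT, behaved alike. It measured 8.10 and 8.08 on wild type 1 and 2, and 9.16 and 9.78 on SIN1 KO 1 and 2. The wild type arrays were nearly equal, and SIN1 KO 2 was the highest array for both Fads2 probe sets. The difference was 1.38 (SE 0.32, 95% interval 0.52 to 2.24), or 2.61-fold, with a limma adjusted p of 0.820 and an unadjusted p of 0.0102. With 1 array left out at a time, the differences ran from 1.43 to 2.22 for 1449325_AT and from 1.07 to 1.69 for 1419031_AT. Hybridisation control scaling and median centring each raise all differences by a common amount, so neither could turn those of Fads2. Cyclic loess, which has no such common shift, gave 1.77 for 1449325_AT and 1.34 for 1419031_AT.

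Fads1, the desaturase that acts later in the same chain as Fads2, lies next to Fads2 among the protein-coding genes of chromosome 19. Its probe set 1423680_AT measured 9.94 and 10.49 on wild type 1 and 2, and 11.22 and 10.77 on SIN1 KO 1 and 2. The genotypes did not overlap, but the gap between the nearest arrays, 0.28, was smaller than the 0.55 between the wild type arrays. In SIN1 KO the order of the arrays was the reverse of that for Fads2, with SIN1 KO 1 above SIN1 KO 2. The means were 10.21 ± 0.39 and 11.00 ± 0.32 (SD, n = 2), and the difference was 0.78 (SE 0.34, 95% interval -0.13 to 1.70), or 1.72-fold, with a limma adjusted p of 0.820. It was 0.51 without wild type 1 and 1.06 without wild type 2, with the values without a SIN1 KO array between these.

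Srebf1, which encodes the transcription factor that drives much of this pathway, was also higher on both SIN1 KO arrays. Probe set 1426690_A_AT measured 8.55 and 8.37 on wild type 1 and 2, and 10.35 and 9.16 on SIN1 KO 1 and 2. SIN1 KO 1 stood well above the other arrays, and SIN1 KO 2 exceeded the nearer wild type array by 0.61. The means were 8.46 ± 0.13 and 9.75 ± 0.84 (SD, n = 2), a difference of 1.30 (SE 0.47, 95% interval 0.03 to 2.56), or 2.45-fold, with a limma adjusted p of 0.820 and an unadjusted p of 0.0466. SIN1 KO 1 set much of its size: the difference was 0.70 without that array and 1.89 without SIN1 KO 2.

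**Figure D2:**
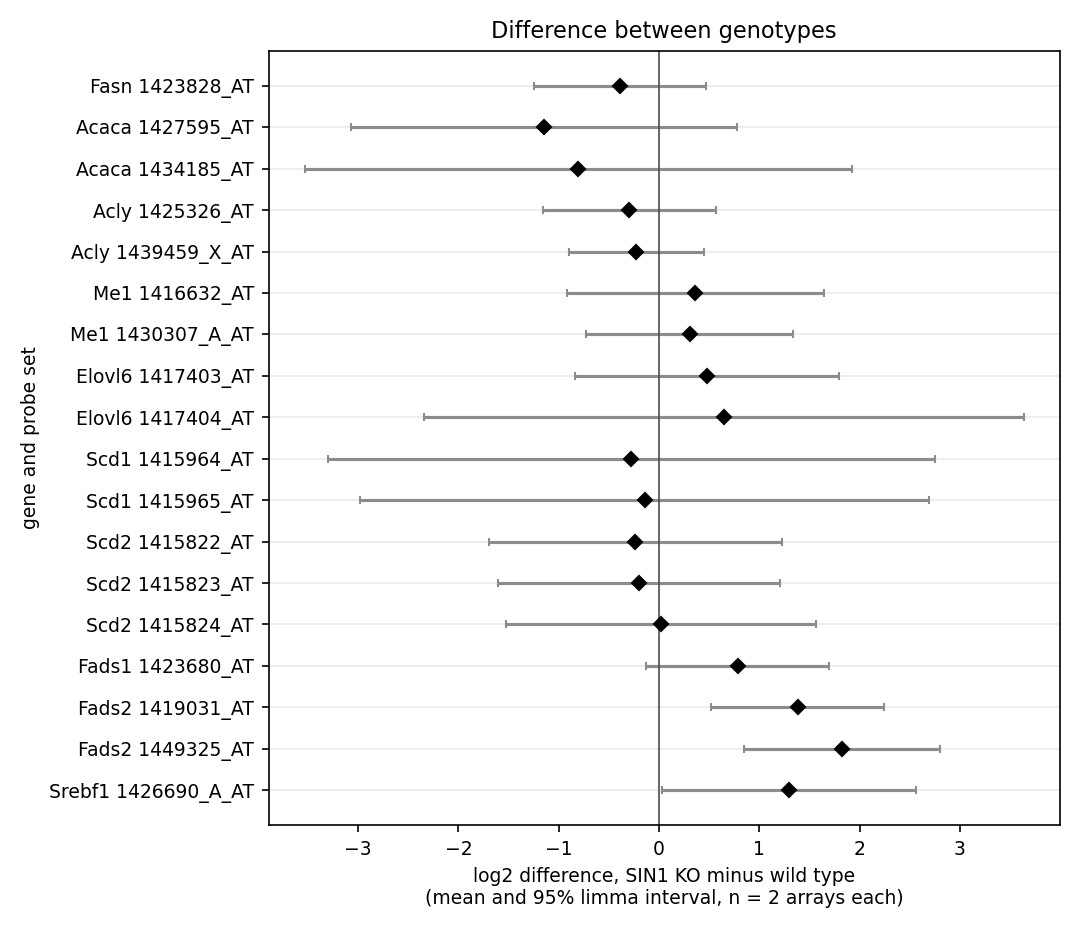
Log2 difference between SIN1 KO and wild type (x axis) for each of the 18 probe sets (y axis), as the mean (diamond) with its 95% interval from limma (n = 2 arrays per genotype, not adjusted for the number of probe sets). The intervals of both Fads2 probe sets and of Srebf1 lie above 0, the last from 0.03, and those of the other 15 include 0.

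Set against all probe sets, the share of the 18 that lay higher on both SIN1 KO arrays was near the background, and the few larger differences were those of Fads2, Srebf1 and Acaca. Both SIN1 KO arrays lay above both wild type arrays for 4 of the 18 (Fads2 with 2, Fads1, Srebf1), against 20.4% of all tested probe sets, and below for 1 (Acly 1439459_X_AT), against 14.9%. A mean at least 1 log2 unit higher in SIN1 KO was seen for 3 (Fads2 with 2, Srebf1), against 4% of all, and at least 1 unit lower for 1 (Acaca 1427595_AT), against 5.84%. At an unadjusted limma p under 0.05 the same 3 were higher, against 3% of all, and 0 were lower, against 2.57%. The count of 3 was unchanged under a filter on mean level, median centring, cyclic loess and other variance priors in limma. It was 4 under hybridisation control scaling. With the replicate number as a block, which leaves 1 residual degree of freedom, it was 2. Leaving out an array leaves a single array in a genotype, so no count is given for those fits. The 3 come from 2 genes, so they are not 3 independent observations. After adjustment, limma called 0% of all probe sets higher and 0% lower.

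Scd1 and Scd2 showed a different pattern, in which arrays of the same genotype stood far apart. Both genes encode stearoyl-CoA desaturases, which make monounsaturated fatty acids such as oleate, and they lie in 1 cluster with Scd3 and Scd4 on chromosome 19. Scd1 1415964_AT measured 8.83 and 10.43 on wild type 1 and 2, and 10.77 and 7.93 on SIN1 KO 1 and 2. Scd1 1415965_AT measured 7.91 and 9.45 on wild type 1 and 2, and 9.85 and 7.23 on SIN1 KO 1 and 2. For both, wild type 2 and SIN1 KO 1 were high and wild type 1 and SIN1 KO 2 low, so the genotypes overlapped fully. The SIN1 KO arrays differed from each other by 2.84 and 2.62 and the wild type arrays by 1.60 and 1.55, far more than the genotype differences of -0.28 (SE 1.13, 95% interval -3.30 to 2.75) and -0.14 (SE 1.06, 95% interval -2.98 to 2.69). Of all tested probe sets, 1.13% had a larger spread within genotypes than 1415964_AT. Intervals this wide do not show that Scd1 was alike in the genotypes.

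The 3 Scd2 probe sets had the same 2 arrays high, at a smaller size. Scd2 1415822_AT measured 10.85 and 11.55 on wild type 1 and 2, and 11.59 and 10.33 on SIN1 KO 1 and 2. Probe set 1415823_AT measured 9.89 and 10.76 on wild type 1 and 2, and 10.66 and 9.59 on SIN1 KO 1 and 2, and 1415824_AT measured 8.64 and 9.12 on wild type 1 and 2, and 9.64 and 8.17 on SIN1 KO 1 and 2. In all 3, SIN1 KO 2 was the lowest array and wild type 1 the next lowest. The genotype differences were -0.23 (SE 0.55), -0.20 (SE 0.52) and 0.02 (SE 0.58), each smaller than the spread within either genotype. The sign of these small Scd1 and Scd2 differences had no hold: every Scd1 and Scd2 probe set changed sign with some array left out. Under hybridisation control scaling the negative ones of both genes became 0.05 to 0.18, and under cyclic loess that of 1415824_AT became -0.02.

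Acaca, the rate-limiting carboxylase of fatty acid synthesis, had the most negative differences. Acaca 1427595_AT measured 7.61 and 8.66 on wild type 1 and 2, and 7.83 and 6.13 on SIN1 KO 1 and 2. Acaca 1434185_AT measured 7.84 and 8.80 on wild type 1 and 2, and 8.90 and 6.13 on SIN1 KO 1 and 2. SIN1 KO 2 was the lowest array by far for both, and SIN1 KO 1 lay above wild type 1 for both. The differences were -1.15 (SE 0.72, 95% interval -3.07 to 0.77) and -0.80 (SE 1.02, 95% interval -3.53 to 1.93), with limma adjusted p of 0.820 and 0.871. Without SIN1 KO 2 they were -0.30 and 0.58, so the second changed sign.

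Elovl6, the elongase that acts on palmitate, lay closest to background. Its probe set 1417404_AT measured 4.54 and 6.18 on wild type 1 and 2, and 7.39 and 4.62 on SIN1 KO 1 and 2. Probe set 1417403_AT measured 3.84 and 4.90 on wild type 1 and 2, and 5.19 and 4.51 on SIN1 KO 1 and 2. Both had wild type 2 and SIN1 KO 1 as the 2 highest arrays, as for Scd1, Scd2 and Acaca, and the genotypes overlapped in both. The differences were 0.65 (SE 1.11, 95% interval -2.34 to 3.64) and 0.48 (SE 0.49, 95% interval -0.84 to 1.80), and neither passed limma's test (adjusted p 0.908 and 0.846). Without SIN1 KO 1 the first was -0.74. Both probe sets lay within 1 unit of background on wild type 1 and SIN1 KO 2.

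Wild type 2 and SIN1 KO 1 were thus the 2 highest arrays for 9 of the 18 probe sets, which are all those of Scd1, Scd2, Acaca and Elovl6, as they were for 17.2% of all tested probe sets. The remaining 9, those of Fasn, Acly, Me1, Fads1, Fads2 and Srebf1, had another pair as the 2 highest. SIN1 KO 1 exceeded SIN1 KO 2 for 16 of 18, with Fads2 as the exception, and for 43.1% of all tested probe sets. Over all probe sets, arrays sharing a number deviated oppositely from their genotype means (r = -0.415 across probe sets, which are not independent). Such an r is just as negative where wild type 1 and SIN1 KO 2 are the higher arrays, so it does not show the pattern of the 9. The median spread within genotypes (residual SD) was 0.62 over the 18 and 0.33 over all tested probe sets. These sets differ in level. Per array, 43.5 to 49.5% of all tested probe sets lay at or below background, whereas the median of the 18 was 8.40 to 9.74. The spread was not compared with that of probe sets of like level. Probe sets of 1 gene share its transcript, so the 9 stand for 4 genes.

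**Figure D3:**
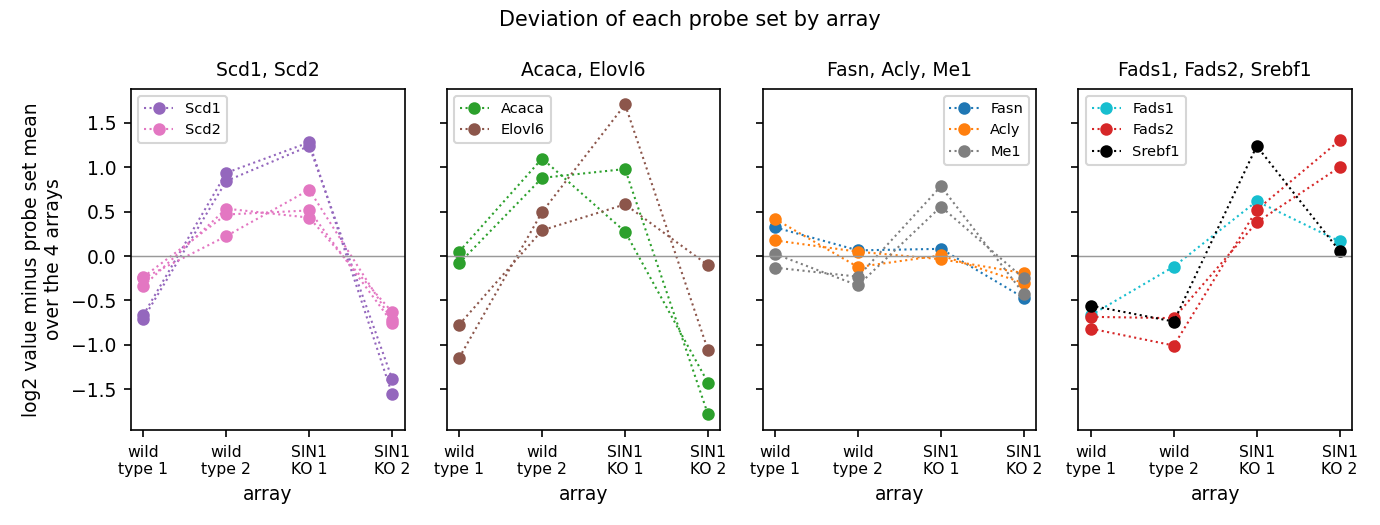
Log2 value of each probe set minus its mean over the 4 arrays (y axis) on each array (x axis), in 4 panels by gene, where each dotted line joins the values of 1 probe set. Scd1, Scd2, Acaca and Elovl6 are high on wild type 2 and SIN1 KO 1, whereas Fads1, Fads2 and Srebf1 have both SIN1 KO points above both wild type points.

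Fasn and Acly varied least, by 0.37 to 0.79 between their lowest and highest arrays. Fasn 1423828_AT, the synthase itself, measured 10.19 and 9.93 on wild type 1 and 2, and 9.95 and 9.40 on SIN1 KO 1 and 2. SIN1 KO 1 fell between the wild type arrays and SIN1 KO 2 below both. The means were 10.06 ± 0.18 and 9.67 ± 0.39 (SD, n = 2), and the difference was -0.39 (SE 0.32, 95% interval -1.24 to 0.46, limma adjusted p 0.826). It was -0.11 without SIN1 KO 2, -0.66 without SIN1 KO 1, -0.26 without wild type 1 and -0.07 under hybridisation control scaling.

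Acly, which supplies acetyl-CoA, had a small separation in 1 of its 2 probe sets. Acly 1439459_X_AT measured 10.38 and 10.25 on wild type 1 and 2, and 10.17 and 10.01 on SIN1 KO 1 and 2, so both SIN1 KO arrays were lower, by a gap of 0.08. Its suffix X is the manufacturer's mark for probes that may bind transcripts of other genes. Acly 1425326_AT measured 9.36 and 8.82 on wild type 1 and 2, and 8.95 and 8.64 on SIN1 KO 1 and 2, and there the genotypes overlapped. The differences were -0.23 (SE 0.25) and -0.30 (SE 0.32). With each array left out 1425326_AT stayed negative, while 1439459_X_AT could not change sign, since its genotypes do not overlap. Median centring gave -0.19 and -0.26, but its common shift is too small to turn either difference. Both stayed negative under cyclic loess (-0.29 and -0.34). Hybridisation control scaling, whose common shift turns any negative difference this small, made them 0.09 and 0.02. That change of sign followed from the shift alone, and which scaling is right for these arrays was not tested.

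Me1, the NADPH-producing malic enzyme, was high on SIN1 KO 1 only. Me1 1416632_AT measured 7.62 and 7.51 on wild type 1 and 2, and 8.53 and 7.32 on SIN1 KO 1 and 2, and 1430307_A_AT measured 8.36 and 8.01 on wild type 1 and 2, and 8.90 and 8.09 on SIN1 KO 1 and 2. SIN1 KO 2 was the lowest array for the first and lay between the wild type arrays for the second. The differences of 0.36 (SE 0.48, 95% interval -0.92 to 1.64) and 0.31 (SE 0.38, 95% interval -0.73 to 1.34) rested on SIN1 KO 1 and were -0.24 and -0.10 without it.

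Averaged over the probe sets of each gene, the difference between genotypes was 1.60 for Fads2, 1.30 for Srebf1 and 0.78 for Fads1. The other means above 0 were 0.56 for Elovl6 and 0.33 for Me1. Below 0 were Scd2 at -0.14, Scd1 at -0.21, Acly at -0.26, Fasn at -0.39 and Acaca at -0.98, of which Scd1, Scd2 and Acly turned positive for at least 1 probe set under hybridisation control scaling. The desaturases of polyunsaturated chains (Fads1, Fads2) were highest on the SIN1 KO arrays, and those of saturated chains (Scd1, Scd2) on wild type 2 and SIN1 KO 1. Neither pattern was particular to desaturases. Srebf1 had the first, as did 20.4% of all tested probe sets, and Acaca and Elovl6 had the second, as did 17.2%.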

How the data were processed

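The authors deposited 1 log2 value per probe set and array, made with RMA (background correction, normalization between arrays and summary of probes), per the submitters' processing notes. RMA's settings and version and the definition of its probe sets are not stated there. The log2 scale was read from the range of the values. No column was left unused, and nothing was normalized further. Without the 64 control probe sets, 45037 remained for the comparison of the genotypes. It was fitted in R 4.3.3 by limma 3.58.1, using lmFit and an untrended eBayes, and p-values were adjusted by Benjamini-Hochberg over all of these probe sets at a threshold of 0.05. With 2 residual degrees of freedom and 2.38 from the prior, precision is limited by how few arrays there are. The fit was tested on simulated data with planted shifts, all larger than any difference among the 18. That check covered the size of the estimates and the false calls. It did not test the power to call differences of the size seen here. Gene names of the 18 probe sets came from the list that defined them, and all 18 are named. Members and lists were chosen with earlier results of these data known. Promoter windows are RefSeq's (GRCm38.p6). The cell type markers and other lipid genes planned for counting had no probe sets paired with them. Plots were made in Python 3.11.15 using matplotlib 3.10.9.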

Additional observations from a re-analysis of the deposited data

How the results depend on the processing

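The count of the 18 called after adjustment was 0 under every alternative run: median centring, cyclic loess, the filter on mean level (at or above the median), hybridisation control scaling, both variance priors, the replicate block and each left-out array. Left-out arrays and blocks leave 1 residual degree of freedom, and the spread of a single remaining array was borrowed from the other genotype. Over all probe sets the filter gave 5 higher and eBayes with trend and robust 5 higher, none of them a member, and 0 were lower under each. No pairing of the replicate numbers was taken as given, since the labels state none. Arrays sharing a number deviated oppositely (r = -0.415 across probe sets), which does not show whether they were paired. With the replicate block the adjusted counts were 0 and 0, and the unadjusted ones 663 higher and 630 lower in place of 1350 and 1159. The crossed pairing, added after the data were seen, gave 0 and 0 adjusted and 2899 and 3473 unadjusted. The count of members lower on both SIN1 KO arrays, 1, was 0 under median centring, 3 under cyclic loess and 0 under hybridisation control scaling, while that of members higher stayed at 4 under median centring, cyclic loess and the filter and was 5 under hybridisation control scaling. The median difference of the 18, -0.06, ran from -0.56 without SIN1 KO 1 to 0.79 without SIN1 KO 2. Of 198 alternative values of single members, 23 changed sign. The 198 include the filter, both variance priors and the replicate block, which leave each difference unchanged. A sign could change only under another scaling or with an array left out. Hybridisation control scaling turned Scd2 1415822_AT to 0.086 and 1415823_AT to 0.12, Scd1 1415964_AT to 0.045 and 1415965_AT to 0.18, and Acly 1425326_AT to 0.025 and 1439459_X_AT to 0.094. Cyclic loess turned Scd2 1415824_AT to -0.019. With 1 array left out at a time, values that changed sign ran from -0.87 to 0.40 (Scd2 1415822_AT), -0.73 to 0.33 (1415823_AT), -0.71 to 0.76 (1415824_AT), -1.69 to 1.14 (Scd1 1415964_AT), -1.45 to 1.17 (1415965_AT), -0.24 to 0.97 (Me1 1416632_AT), -0.10 to 0.71 (1430307_A_AT), -0.050 to 1.01 (Elovl6 1417403_AT), -0.74 to 2.03 (1417404_AT) and -2.19 to 0.58 (Acaca 1434185_AT).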
